A study of Mus musculus with 6 samples.

Results

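The genes described here are 10 mouse genes known as transcriptional targets or feedback regulators of TGF-beta and BMP signalling: Pmepa1, Smad6, Smad7, Id1, Id2, Id3, Ski, Skil, Tgif1 and Bhlhe40. They were taken by symbol from a count table of 57010 genes, and each of the 10 symbols matched 1 row. The study sequenced poly(A) RNA of RAW 264.7 cells, an established mouse macrophage line, after stimulation with lipopolysaccharide, a bacterial cell wall component. The cells then received extracellular vesicles of tendon stem cells, which had been kept in normoxia (normoxic-EV, 3 libraries) or preconditioned in hypoxia (hypoxic-EV, 3 libraries). Lipopolysaccharide was common to both groups, all cells are of 1 line, and the sources used here give no dose, time, oxygen level or stem cell species. No library of cells without vesicles was analysed here, and a value states how the vesicle treatments differ from each other. Whether the 3 libraries of a group stem from separate cultures is left unsaid by the labels, so the spread behind each test may be technical only.

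The 10 genes were chosen with the difference between hypoxic-EV and normoxic-EV in these libraries already known. Their fold changes are therefore given as descriptions, with no p-value for any of the 10, and nothing is inferred from how many differ.

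TGF-beta and BMP ligands bind pairs of receptor kinases that phosphorylate SMAD proteins, SMAD2 and SMAD3 for TGF-beta and activin, SMAD1 and SMAD5 for BMP. These join SMAD4 in the nucleus and switch on target genes, several of which encode brakes on the same pathway. In macrophages TGF-beta is best known for restraining inflammatory activation. Several of the targets also answer to other stimuli, and Bhlhe40 is a known hypoxia-inducible gene.

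Library totals ran from 16.75 to 23.42 M counts. Spearman correlations of log2 CPM across genes were between 0.9961 and 0.9972 for libraries of the same group and between 0.9845 and 0.9879 for libraries of different groups. Of 10 macrophage markers, 10 passed the filter on low counts, with a summed level between 9319 and 12196 CPM (counts relative to the library total after TMM scaling) per library. Of these, 2 were called higher and 7 lower in hypoxic-EV, where 22.7% of all tested genes were called higher and 21.5% lower. The part of the macrophage markers in the results below was not tested. Of 14 stromal and tendon markers, 0 passed the filter and 6, among them Col1a2, Col3a1 and Tnmd, had 0 counts in every library, with a summed level of 1.08 to 2.39 CPM. Summed lymphocyte markers lay between 0.419 and 0.701 CPM in normoxic-EV and between 0.868 and 1.08 CPM in hypoxic-EV, with Cd3e at 0. Of these markers only the B cell receptor gene Cd79a passed the filter. It was called higher (log2 fold change 1.36, adjusted p in edgeR = 0.00849) on 3 to 18 counts per library, and was not called by DESeq2. The part of these markers in the results was not tested. Summed neutrophil and dendritic cell markers lay between 239 and 273 CPM in normoxic-EV and between 99.2 and 122 CPM in hypoxic-EV, nearly all of it S100a8, with Elane at 0, and their part in the results was not tested.

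Most of the 10 genes were higher in macrophages given hypoxic-EV, led by Pmepa1 and Id1, while Id2 and Tgif1 were lower. Each of the 10 passed the filter on low counts, and the smallest count of any of them in a library was 97. With edgeR's quasi-likelihood test and a Benjamini-Hochberg adjusted p under 0.05 as the threshold for a call, 8 were called higher and 2 lower, where 22.7% of all 13303 tested genes were called higher and 21.5% lower (44.2% in all). The CPM of the groups did not overlap for 9 of the 10 genes, 8 with hypoxic-EV above and 1 below, where 52.8% of all tested genes did not overlap, 26.6% above and 26.1% below. The median log2 fold change of the 10 was 0.83, beside -0.0011 over all tested genes. Since the genes were chosen on this same comparison, these counts describe the selection and are not evidence about the pathway.

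**Figure D1:**
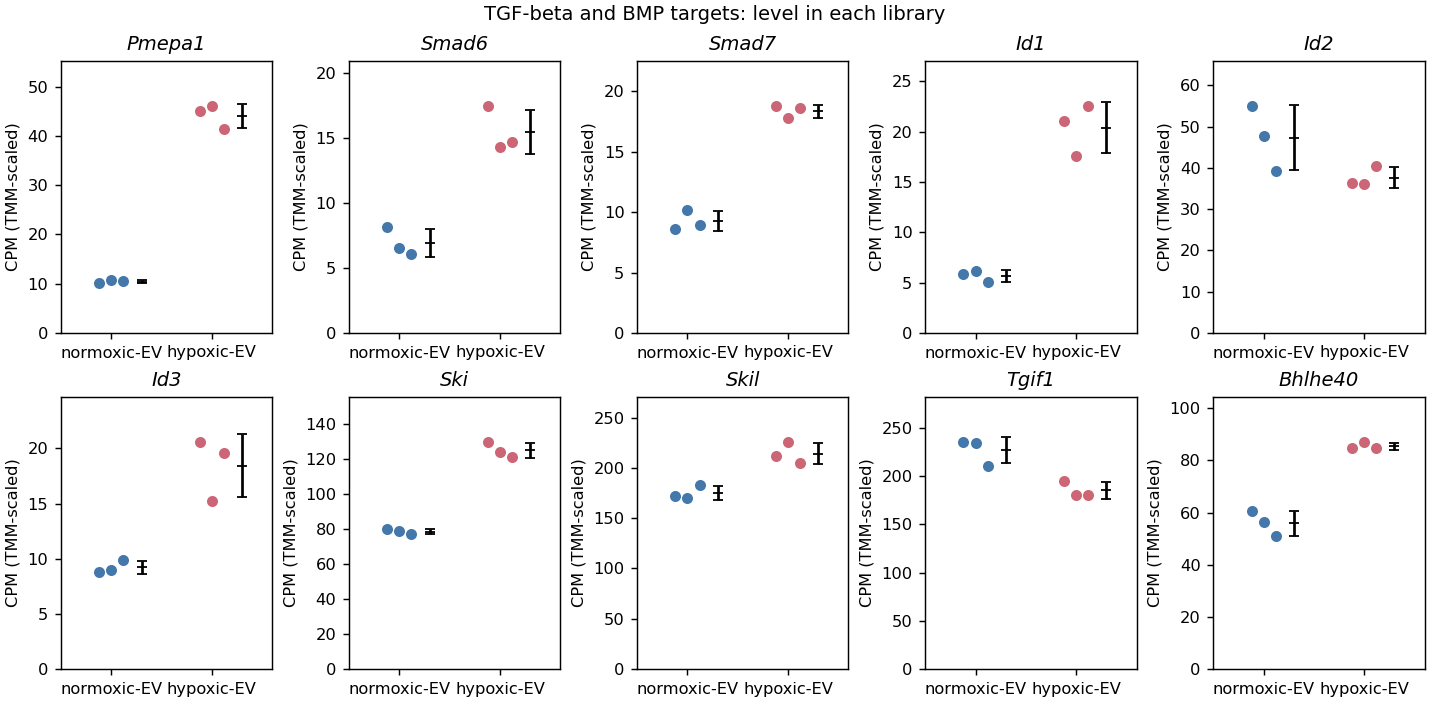
CPM of each of the 10 genes in each library, with 1 panel per gene, a linear axis from 0, 1 point per library, and the mean ± SD (n = 3) beside each group. The hypoxic-EV libraries sit above the normoxic-EV libraries in 8 panels, below them for Tgif1, and overlap them for Id2.

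**Figure D2:**
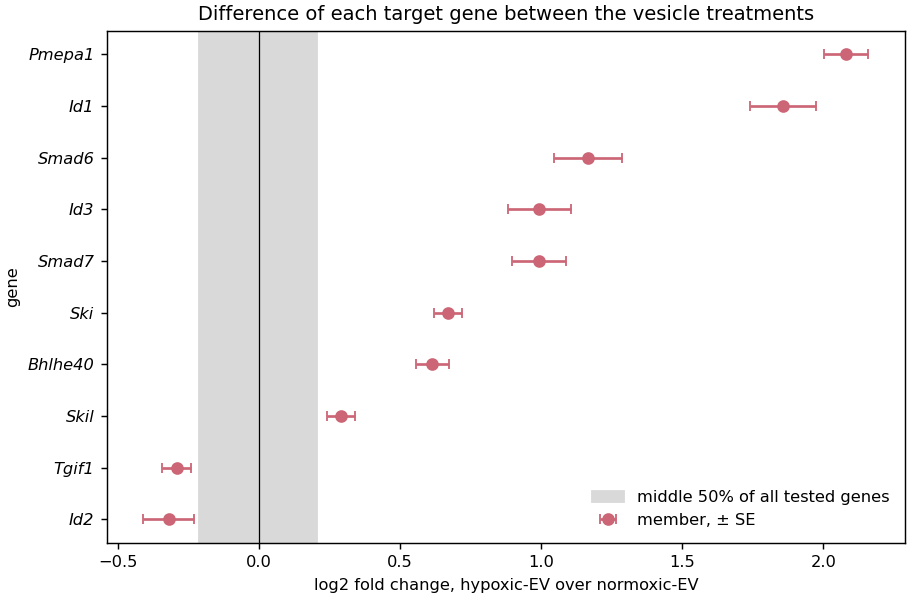
Log2 fold change of each gene, hypoxic-EV over normoxic-EV, with bars of 1 SE, ordered by size, and the middle 50% of all tested genes shaded (-0.21 to 0.20). Pmepa1 and Id1 stand furthest out at 2.08 and 1.86, and Id2 and Tgif1 lie below 0.

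Pmepa1 differed most. It encodes a membrane protein that binds receptor-activated SMADs and limits TGF-beta signalling (ENSMUSG00000038400, GRCm39 chromosome 2, 173066251 to 173118326). Its level was 10.1, 10.7 and 10.5 CPM in normoxic-EV replicates 1 to 3 and 45.0, 46.0 and 41.4 CPM in hypoxic-EV replicates 1 to 3. All hypoxic-EV libraries were high, all normoxic-EV libraries were low, and the lowest hypoxic-EV value was 3.88 times the highest normoxic-EV value. The means were 10.4 ± 0.325 and 44.2 ± 2.44 CPM (SD, n = 3), or a log2 difference of 2.08 (SE 0.0778) or 4.23-fold. Of all tested genes, 0.0977% had a larger log2 fold change.

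The inhibitory SMAD genes were both higher with hypoxic-EV. Smad6 and Smad7 encode SMADs that cannot activate transcription and instead block the receptors and the activating SMADs, Smad6 mainly in the BMP branch and Smad7 in both branches. Smad6 (ENSMUSG00000036867, GRCm39 chromosome 9, 63860358 to 63929341) stood at 8.14, 6.54 and 6.09 CPM in normoxic-EV and 17.4, 14.3 and 14.7 CPM in hypoxic-EV. The groups did not overlap, although replicate 1 was the highest library in each. Its log2 fold change was 1.16 (SE 0.12), from 6.92 ± 1.08 to 15.5 ± 1.70 CPM (SD, n = 3). Smad7 (ENSMUSG00000025880) stood at 8.61, 10.2 and 8.98 CPM in normoxic-EV and 18.8, 17.8 and 18.6 CPM in hypoxic-EV, again with no overlap. Its log2 fold change was 0.99 (SE 0.0957), from 9.25 ± 0.808 to 18.4 ± 0.536 CPM. Per length, in FPKM (counts relative to gene length and library total), the summed level of the pair went from 4.20 ± 0.282 to 8.88 ± 0.720. Smad6 made up 51.2 ± 5.17% of that sum in normoxic-EV and 54.2 ± 2.18% with hypoxic-EV (SD, n = 3). This share overlapped between the groups, at 47.6% to 57.1% in normoxic-EV and 52.7% to 56.7% with hypoxic-EV.

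The ID genes encode helix-loop-helix proteins without a DNA-binding region, which hold E proteins away from DNA. Id1 and Id3 are classic direct targets of BMP signalling, and Id2 shares that input and many others. Id2 and Id3 were picked because these paralogues differed in direction, and Smad6 as the inhibitory SMAD gene among the promoter entries used. The reference promoters of these genes are shown. They are the 250 bases before the annotated start in RefSeq's GRCm38.p6, an older build than the GRCm39 of the counts, read 5′ to 3′ along the gene's strand (Id2 chr12:25096093-25096342, minus strand; Id3 chr4:136143572-136143821, plus strand; Smad6 chr9:64022060-64022309, minus strand). Capitals mark any match on either strand to CAGAC (the SMAD box), GGCGCC (a GC-rich SMAD element of BMP targets), ACGTG (the core of hypoxia elements), CACGTG (an E-box that contains ACGTG) or TGACTCA (an AP-1 element).
Id2: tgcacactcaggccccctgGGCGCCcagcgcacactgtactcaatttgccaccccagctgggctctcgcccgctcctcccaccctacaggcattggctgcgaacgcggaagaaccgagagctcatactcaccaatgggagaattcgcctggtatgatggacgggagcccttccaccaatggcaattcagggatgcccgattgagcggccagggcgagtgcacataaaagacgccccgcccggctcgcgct
Id3: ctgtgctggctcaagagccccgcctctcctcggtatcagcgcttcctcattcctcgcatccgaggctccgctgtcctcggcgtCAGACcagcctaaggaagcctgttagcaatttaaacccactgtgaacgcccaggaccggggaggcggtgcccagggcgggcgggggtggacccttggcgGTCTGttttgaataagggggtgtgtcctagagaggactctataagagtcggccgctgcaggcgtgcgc
Smad6: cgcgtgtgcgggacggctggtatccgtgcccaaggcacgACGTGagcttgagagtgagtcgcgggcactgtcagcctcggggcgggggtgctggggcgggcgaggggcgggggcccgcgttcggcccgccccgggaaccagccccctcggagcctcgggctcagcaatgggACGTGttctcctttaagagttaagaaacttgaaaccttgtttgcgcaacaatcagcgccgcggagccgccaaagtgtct
The Id3 window held the SMAD box at positions -167 and -68 from the start, and the Id2 window held 1 GGCGCC at -231. The Smad6 window held ACGTG at -211 and -79 and no SMAD box. Promoter entries of 5 of the 10 genes were used (Id2, Id3, Ski, Smad6 and Tgif1, the last with 5 alternative starts). Smad7 was not included in this search, and absence from these 5 does not show that a gene lacks an entry. Over the full 300-base windows, CAGAC was found for Id3 and Tgif1, GGCGCC for Id2 and Ski, ACGTG for Smad6 and Tgif1, and CACGTG and TGACTCA for none of the 5. Of all 32851 windows in the table, 49.6% held CAGAC, 11.9% GGCGCC, 19.6% ACGTG, 7.15% CACGTG and 5.20% TGACTCA. Such matches describe letters in a window and do not show a bound site.

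Id1 and Id3 were higher with hypoxic-EV and Id2 was not. Id1 (ENSMUSG00000042745, GRCm39 chromosome 2, 152578171 to 152579330) was measured at 5.80, 6.19 and 5.02 CPM in normoxic-EV and 21.1, 17.6 and 22.5 CPM in hypoxic-EV. The groups were far apart, with the lowest hypoxic-EV library at 2.84 times the highest normoxic-EV library. The means were 5.67 ± 0.595 and 20.4 ± 2.55 CPM (SD, n = 3), or a log2 difference of 1.86 (SE 0.118) or 3.62-fold, and 0.173% of tested genes had a larger one. Id3 (ENSMUSG00000007872, GRCm39 chromosome 4, 135870808 to 135873066) was measured at 8.79, 8.99 and 9.87 CPM in normoxic-EV and 20.5, 15.2 and 19.6 CPM in hypoxic-EV. Its groups did not overlap, and hypoxic-EV replicate 2 was the lowest of its group for Id3 as it was for Id1. The log2 fold change of Id3 was 0.99 (SE 0.112), from 9.22 ± 0.570 to 18.4 ± 2.84 CPM.

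Id2 (ENSMUSG00000020644, GRCm39 chromosome 12, 25143798 to 25147139) was measured at 54.9, 47.8 and 39.2 CPM in normoxic-EV and 36.3, 36.0 and 40.6 CPM in hypoxic-EV. Here the groups overlapped, since normoxic-EV replicate 3 lay below hypoxic-EV replicate 3, and the normoxic-EV libraries were widely spread. The log2 fold change was -0.32 (SE 0.0900), from 47.3 ± 7.87 to 37.6 ± 2.57 CPM (SD, n = 3). Without normoxic-EV replicate 1, the highest library, it was -0.19 and Id2 was no longer called.

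Per length, the ID family therefore changed in composition. Id2 supplied 65.6 ± 3.71% of the summed FPKM of Id1, Id2 and Id3 in normoxic-EV and 35.8 ± 2.52% with hypoxic-EV (SD, n = 3). The Id1 share was 15.4%, 17.8% and 16.7% in the normoxic-EV libraries and 40.8%, 39.4% and 41.3% in the hypoxic-EV libraries, so that Id1 had a larger share than Id2 in each hypoxic-EV library and a smaller one in each normoxic-EV library. The Id3 share was 17.7 ± 3.17% and 23.7 ± 1.86%. The summed level of the family was 29.4 ± 3.24 FPKM in normoxic-EV and 43.2 ± 4.53 FPKM with hypoxic-EV, with no overlap between groups. The fourth family gene, Id4, had 0 counts in every library, which allows up to 0.179 CPM in the shallowest library, counting error only.

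The E protein genes whose products the ID proteins bind differed less. Tcf3 (log2 fold change 0.34 with an SE of 0.0794, adjusted p in edgeR = 0.0016) and Tcf4 (0.24, SE 0.0594, adjusted p in edgeR = 0.00226) rose, and Tcf12, the most abundant per length at 17.8 FPKM, had -0.02 (SE 0.0461, adjusted p in edgeR = 0.745). The summed FPKM of Tcf3, Tcf4 and Tcf12 was 29.0 ± 0.493 in normoxic-EV and 31.4 ± 1.38 with hypoxic-EV (SD, n = 3). The ratio of ID to E protein FPKM was 1.14, 1.03 and 0.881 in the normoxic-EV libraries and 1.39, 1.28 and 1.45 in the hypoxic-EV libraries. These are ratios of transcripts, and protein was not measured.

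**Figure D3:**
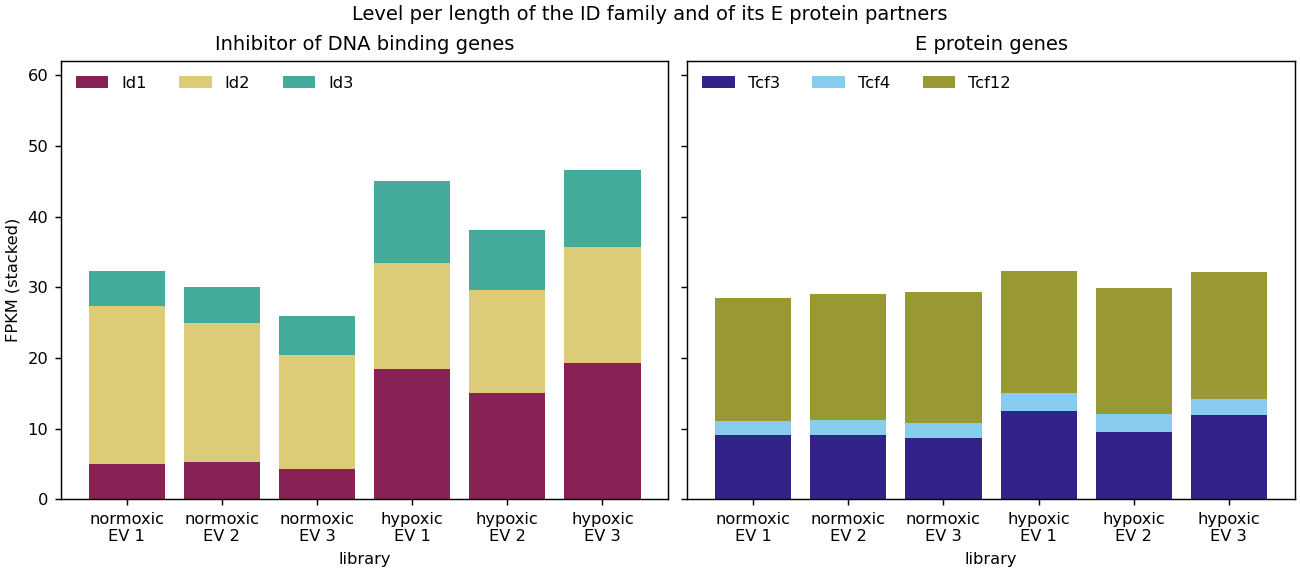
Stacked FPKM of Id1, Id2 and Id3 (left) and of Tcf3, Tcf4 and Tcf12 (right) in each of the 6 libraries, on a shared linear axis from 0. The Id1 segment goes from a mean of 4.88 FPKM in normoxic-EV to 17.5 FPKM in hypoxic-EV, while the E protein columns stay between 28.4 and 32.3 FPKM.

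The corepressor genes moved by less, and not all in the same direction. Ski and Skil encode nuclear proteins that bind SMAD complexes and recruit repressors, and Skil is itself induced by TGF-beta in a feedback loop. Ski (ENSMUSG00000029050, GRCm39 chromosome 4, 155238532 to 155307049) stood at 79.9, 78.7 and 77.1 CPM in normoxic-EV and 130, 124 and 121 CPM in hypoxic-EV. The libraries of each group lay close together and the groups were apart, with a log2 fold change of 0.67 (SE 0.0492). Skil (ENSMUSG00000027660, GRCm39 chromosome 3, 31149207 to 31176726) stood at 172, 170 and 183 CPM and at 212, 225 and 205 CPM, also apart but by less, with a log2 fold change of 0.29 (SE 0.0492). Per length the Ski share of the pair went from 43.9 ± 1.31% to 50.5 ± 1.31% (SD, n = 3), and the pair was about equal in FPKM with hypoxic-EV.

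Tgif1, which encodes a homeodomain protein that competes with coactivators for SMAD2, was lower with hypoxic-EV (ENSMUSG00000047407, GRCm39 chromosome 17, 71151200 to 71160541). Its level was 235, 235 and 211 CPM in normoxic-EV and 195, 180 and 181 CPM in hypoxic-EV. Each hypoxic-EV library lay below each normoxic-EV library, with a log2 fold change of -0.29 (SE 0.0519), or 1.22-fold lower. The pseudogene Gm9320 lies within its span on the other strand with 1.97% of its total count. No source used here gives the strand setting of the counting, so reads of these 2 genes cannot be told apart with certainty.

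Bhlhe40 encodes a basic helix-loop-helix repressor known from the circadian clock, from hypoxia and from the control of cytokine genes in immune cells (ENSMUSG00000030103, GRCm39 chromosome 6, 108637590 to 108643886). It stood at 60.4, 56.5 and 50.9 CPM in normoxic-EV and 84.6, 86.9 and 84.7 CPM in hypoxic-EV. The hypoxic-EV libraries were nearly equal and all above the normoxic-EV libraries, with a log2 fold change of 0.61 (SE 0.0596), from 55.9 ± 4.80 to 85.4 ± 1.28 CPM (SD, n = 3). The noncoding gene 0610040F04Rik overlaps it on the other strand with a total of 1 count. Its closest relative, Bhlhe41, was also higher, from 16.4 ± 0.967 to 22.1 ± 1.73 CPM (log2 fold change 0.44 with an SE of 0.0848, adjusted p in edgeR = 0.000263). Of the other relatives, Tgif2, Skor1 and Skor2 did not pass the filter.

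The 5 genes lowest in FPKM in normoxic-EV had larger log2 fold changes than the other 5, although the lowest, Smad7, did not differ most. In normoxic-EV, the order of FPKM was Tgif1 (40.3 ± 2.42), Id2 (19.4 ± 3.19), Skil (18.0 ± 0.689), Ski (14.1 ± 0.232), Bhlhe40 (11.9 ± 0.998), Id3 (5.14 ± 0.324), Id1 (4.88 ± 0.515), Smad6 (2.16 ± 0.329), Pmepa1 (2.12 ± 0.0719) and Smad7 (2.04 ± 0.184; SD, n = 3 each). The libraries of neighbours overlapped for Id2 and Skil, for Id3 and Id1, and among Smad6, Pmepa1 and Smad7, so the order within those sets is not resolved. The lower 5 genes of this order had log2 fold changes of 0.99 to 2.08, and the upper 5 had -0.32 to 0.67. The normoxic-EV level enters both quantities, so they are not independent measures. In hypoxic-EV, Tgif1 was still highest at 32.9 ± 1.88 FPKM and Smad7 lowest at 4.06 ± 0.151 FPKM. Id1 stood at 17.5 ± 2.23 FPKM there, and its libraries overlapped those of its neighbours Bhlhe40 and Id2, and Pmepa1 at 8.98 ± 0.535 FPKM overlapped with Id3. The coefficient of variation of FPKM within a group ran from 1.33% (Bhlhe40, hypoxic-EV) to 16.5% (Id2, normoxic-EV).

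**Figure D4:**
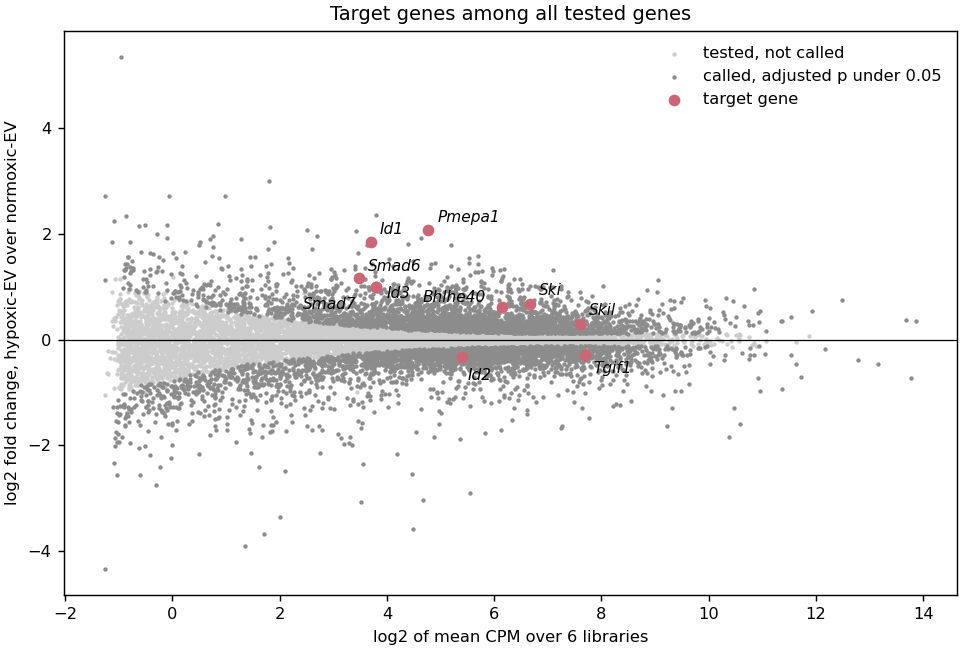
Log2 fold change against the log2 of mean CPM over 6 libraries for all 13303 tested genes, with the 10 target genes named and genes called at an adjusted p under 0.05 in darker grey. Pmepa1 and Id1 lie at the upper edge of the cloud, and the more abundant Skil and Tgif1 lie nearer to 0, at 0.29 and -0.29.

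In the authors' deposited table of 462 genes, in which the smallest absolute log2 fold change was 1.001, 3 of the 10 genes were listed. The authors' deposited table gave log2 fold changes of 2.09 for Pmepa1, 1.86 for Id1 and 1.17 for Smad6. Id3 and Smad7, each with a log2 fold change of 0.99 here, were not listed there.

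Among 96 genes in 9 lists of further targets, ligands, receptors, SMADs, regulators and relatives, 50 passed the filter, of which 17 were called higher and 8 lower, where 22.7% of all tested genes were called higher and 21.5% lower. Their median log2 fold change was 0.05, beside -0.0011 over all tested genes. These lists were written with earlier results of these libraries known.

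**Figure D5:**
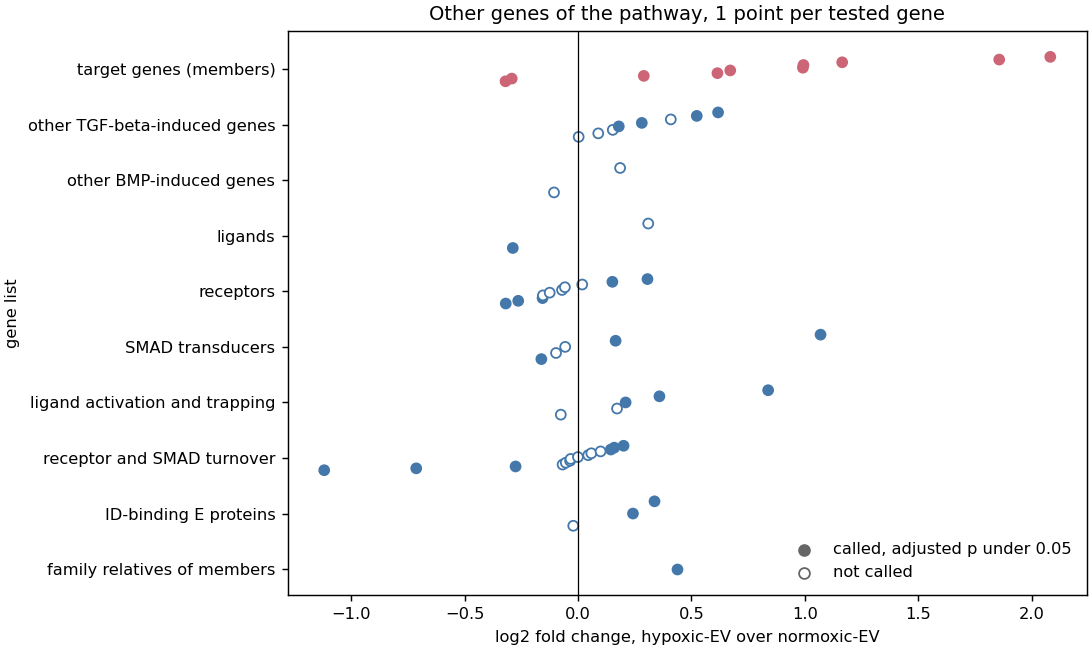
Log2 fold change of each tested gene of the 10 target genes (red) and of 9 further pathway lists (blue), with 1 point per gene, filled where called at an adjusted p under 0.05 and open where not. The target genes reach 2.08, while in the other lists Smad3 is highest at 1.07 and Nedd4l lowest at -1.12.

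Of 13 other genes known to be induced by TGF-beta, 8 passed the filter, with 4 called higher and 0 lower (median log2 fold change 0.23). By edgeR at an unadjusted p under 0.05, and by DESeq2 at an adjusted p under 0.05, 0 were lower as well. The share called by edgeR was 50%, beside 44.2% of all tested genes (22.7% higher and 21.5% lower). Klf10, an early TGF-beta-induced transcription factor gene, rose from 42.1 ± 5.14 to 60.8 ± 2.81 CPM (SD, n = 3; log2 fold change 0.52, adjusted p in edgeR = 5.4e-06). Tsc22d1 and the cell cycle inhibitor gene Cdkn1a were called with smaller log2 fold changes of 0.28 and 0.18. Neither call held with each library left out. That of Tsc22d1 ended without normoxic-EV replicate 1 (0.24), hypoxic-EV replicate 2 (0.22) or hypoxic-EV replicate 3 (0.24), and that of Cdkn1a without normoxic-EV replicate 1 (0.18), normoxic-EV replicate 3 (0.17), hypoxic-EV replicate 1 (0.17) or hypoxic-EV replicate 3 (0.11). Junb, the most abundant per length at 92.5 FPKM, had 0.15 (adjusted p in edgeR = 0.0908) and was called without hypoxic-EV replicate 2 (0.26), and Prdx2 on the opposite strand overlaps it with 52.8% of its counts. Spsb1, Klf11 and Nedd9 had 0.41, 0.09 and 0.0027 and were not called. Ccn2, Cdkn2b, Tgfbi, Ldlrad4 and Itgae, which are strongly induced by TGF-beta in other cell types or in lymphocytes, did not pass the filter.

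Of 10 other BMP-induced genes, only Atoh8 and Hey1 passed the filter, and 0 were called by edgeR, 0 at an unadjusted p under 0.05 and 0 by DESeq2. Atoh8 stood at 1.58 ± 0.379 and 1.49 ± 0.271 CPM (SD, n = 3) and Hey1 at 0.548 ± 0.0705 and 0.656 ± 0.356 CPM. Smad9, Msx1 and Msx2 had 0 counts in every library. The SE of the log2 fold change was 0.25 for Atoh8 and 0.42 for Hey1, so a difference of the size of that of Skil was not detectable at this depth.

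The macrophages' own ligand transcripts were dominated by Tgfb1, which fell with hypoxic-EV. Of 20 ligand genes, Tgfb1 and Tgfb3 passed the filter and 9, among them Bmp4, Bmp6 and Bmp7, had 0 counts in every library. Tgfb1 was at 349, 334 and 336 CPM in normoxic-EV and 277, 259 and 298 CPM in hypoxic-EV, with no overlap (log2 fold change -0.29 with an SE of 0.0507, adjusted p in edgeR = 9.35e-05). Tgfb3 was near 1 CPM and was not called (0.31, SE 0.256, adjusted p in edgeR = 0.349), and it shares its locus with Ttll5 on the opposite strand, which had 2047% of its counts. Ligand carried by the vesicles or the medium was not measured.

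Of 13 receptor genes, 10 passed the filter, 2 rose and 3 fell (median log2 fold change -0.10), a share near the 44.2% called among all tested genes. Tgfbr1, the type I TGF-beta receptor gene, rose by a log2 fold change of 0.31 (SE 0.0541; adjusted p in edgeR = 9.55e-05). Acvr1 and Acvr1b, type I receptor genes of the BMP and activin branches, had -0.32 (adjusted p in edgeR = 0.00016) and -0.26 (adjusted p in edgeR = 0.00223). Bmpr1a, the most abundant receptor gene per length at 21.2 FPKM, had -0.16, and Tgfbr2, named after its values were seen, had 0.15. The Bmpr1a call ended without normoxic-EV replicate 1 (-0.14) or hypoxic-EV replicate 1 (-0.10). The Tgfbr2 call ended without normoxic-EV replicate 1 (0.13), normoxic-EV replicate 2 (0.15) or hypoxic-EV replicate 3 (0.13), and with DESeq2 (0.15).

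Among the SMAD transducers, Smad3 stood out. It carries the TGF-beta signal to DNA, and its transcript went from 14.5, 12.9 and 14.6 CPM in normoxic-EV to 29.9, 28.0 and 30.5 CPM in hypoxic-EV. The libraries of the groups were far apart, with a log2 fold change of 1.07 (SE 0.0799; adjusted p in edgeR = 7.18e-10). Smad2 and the shared partner gene Smad4, the most abundant per length at 23.5 FPKM, had -0.16 (adjusted p in edgeR = 0.0167) and 0.17 (adjusted p in edgeR = 0.016). The BMP transducer genes Smad1 and Smad5 had -0.06 (adjusted p in edgeR = 0.493) and -0.10 (adjusted p in edgeR = 0.184). The Smad2 call ended without normoxic-EV replicate 3 (-0.12), without hypoxic-EV replicate 3 (-0.14) and with no filter on low counts (-0.15). The Smad4 call ended without normoxic-EV replicate 2 (0.17) or hypoxic-EV replicate 3 (0.12).

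Genes that release or trap the ligands were higher where they changed. Of 14, 5 passed the filter, 3 rose and 0 fell, also 0 at an unadjusted p under 0.05 and by DESeq2. The share called by edgeR was 60%, beside 44.2% of all tested genes (22.7% higher and 21.5% lower). Nrros, which encodes the latent TGF-beta anchor of myeloid cells, and the integrin gene Itgav had log2 fold changes of 0.36 and 0.21 (adjusted p in edgeR = 3.38e-05 and 0.00116). Ltbp4 and the convertase gene Furin had 0.17 and -0.08 and were not called.

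Of 14 genes of receptor and SMAD turnover, 14 passed the filter, with 3 called higher and 3 lower, again near the 44.2% called among all tested genes. Nedd4l, a ubiquitin ligase gene whose product marks activated SMAD2 and SMAD3 for destruction, fell from 19.3, 21.2 and 20.7 CPM to 9.03, 8.98 and 10.1 CPM. Every hypoxic-EV library was below every normoxic-EV library, with a log2 fold change of -1.12 (SE 0.0925; adjusted p in edgeR = 3.37e-09). Zfyve16, encoding an endosomal SMAD anchor, had -0.71 (adjusted p in edgeR = 1.08e-08), and Rnf111, encoding a ubiquitin ligase that destroys SMAD7 and SKI family proteins, had -0.28 (adjusted p in edgeR = 5.56e-05). The deubiquitinase gene Usp15 had 0.20 (adjusted p in edgeR = 0.00263). Strap, whose product binds the receptors and SMAD7 and which was the most abundant per length at 91.4 FPKM, and Fkbp1a, whose product binds type I receptors and which is named after its values were seen, had 0.14 and 0.16. The Strap call ended without normoxic-EV replicate 2 (0.11) or hypoxic-EV replicate 2 (0.10), and the Fkbp1a call without normoxic-EV replicate 2 (0.14). The SMAD ubiquitin ligase genes Smurf1 and Smurf2, named after their values were seen, had -0.05 and 0.10 and were not called.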

How the data were processed

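Poly(A) RNA of 6 RAW 264.7 libraries was sequenced in pairs, per the labels' protocols. Per the submitters' processing notes, HISAT2, featureCounts and DESeq2 were used with build GRCm39. Versions, annotation, strand setting and multi-mapping treatment: not given in the sources used here. The authors deposited raw counts per gene, FPKM values, and a comparison table whose log2 fold changes were used. Its deposited p-values, test score and mean count signal were not used.

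The counts were fitted with edgeR 4.0.16 in R 4.3.3, with filterByExpr (minimum count 10, minimum total 15), TMM scaling and a two-sided quasi-likelihood F-test of hypoxic-EV against normoxic-EV, with no block and with Benjamini-Hochberg adjustment over 13303 genes. A gene was called at an adjusted p under 0.05. The fit was checked on simulated data. CPM are TMM-scaled, errors after ± are SD over 3 libraries, and SE is the log2 fold change divided by the square root of F. Levels of different genes were compared in FPKM only. The limit for a gene with 0 counts, taken as 3 counts, was 0.128 to 0.179 CPM per library and covers counting error only.

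The 10 genes and all lists were chosen with earlier results of these data known. All 10 genes are named. From each list, every tested gene was named where at most 8 were tested, otherwise the called genes with the 4 largest changes and the most abundant one. A few genes of the lists that are in the counts and plots are not reported by name here. Genes of similar pattern were the 3 protein-coding genes with a mean of at least 5 CPM and the highest correlation with Pmepa1 and with Id1. Alternatives were DESeq2 1.42.0, other scalings, no filter, each library left out and a replicate block.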

Additional observations from a re-analysis of the deposited data

How the results depend on the processing

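The 10 target genes gave 120 log2 fold changes under 12 alternatives each. Of these, 119 kept their direction and their side of the threshold, and 1 kept its direction only, that of Id2 without normoxic-EV replicate 1. The number of the 10 called lower therefore ran from 1 to 2 over the 6 libraries left out, and the number called higher was 8 in each. The median of the 10 ran from 0.78 to 0.85. All genes called ran from 4993 to 5866 over the alternatives, with 5121 by DESeq2, beside 5877. For the other pathway genes, 574 of 600 values kept direction and call, 21 lost the call, 5 gained it and 0 reversed.

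The labels name no pairing of the libraries by replicate number. The deviations of same-numbered libraries from their group means correlated between -0.018 and -0.014, and no library correlated best with its own number. Deviations from a mean of 3 libraries are tied to each other, so these values cannot exclude a weak pairing. With the number as a replicate block, 5662 genes were called in place of 5877, and 8 of the 10 genes were called higher and 2 lower. Junb was called with the block (0.15) and with no filter (0.17), and Bmpr2, at -0.12 and not called, was called without normoxic-EV replicate 1 (-0.16) or hypoxic-EV replicate 2 (-0.15). Counts of 97 or more in each library limit the 10 genes little, while genes under about 1 CPM, such as Hey1, cannot be compared closely.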

Other observations

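Genes whose level followed Pmepa1 and Id1 most closely over the 6 libraries were ranked by Pearson correlation of log2(CPM + 1) among 9458 protein-coding genes. With a single contrast between 2 groups such correlations mostly reflect the group difference, so they are given as a description: 256 candidates exceeded 0.99 for Pmepa1 and 93 for Id1. Closest to Pmepa1 were Cpt1a, encoding the carnitine transferase that admits fatty acids to mitochondria (r = 0.9997 over 6 libraries), the RNA-sensing receptor gene Tlr7 (r = 0.9992) and the mitotic kinesin gene Kif4 (r = 0.9991). Cpt1a stood at 22.7, 24.5 and 23.7 CPM in normoxic-EV and 69.0, 70.4 and 66.9 CPM in hypoxic-EV, a log2 fold change of 1.54. Tlr7 and Kif4 had log2 fold changes of 1.05 and 0.99. Closest to Id1 were Sema4b (r = 0.9994), Niban2 (r = 0.9994) and Sec31a (r = 0.9988), with smaller log2 fold changes of 0.47, 0.52 and 0.23. Like Id1, each of the 3 was lowest in replicate 2 among the hypoxic-EV libraries and lowest in replicate 3 among the normoxic-EV libraries. The 3 genes were picked by their correlation with Id1 over these same libraries, so the shared order describes the selection.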
